A study of Mus musculus with 5 samples.

Results

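Srpx2 and the genes of the plasminogen activator system were examined in 5 single-cell clones of Ocy454, a mouse cell line with features of osteocytes, the cells buried in bone matrix. The members were Srpx2 and its relative Srpx, the activators Plau and Plat, the urokinase receptor Plaur and the serpin Serpine2. They were chosen by gene symbol, by a reader of earlier results from the same comparison of clones, so their values are given here as a description, with no test. Of the 6 genes listed, 5 had a named probe set among 23185 named genes. Serpine2 was not analysed here.

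The 5 clones came from a screen of 37 (per the labels) that was read by Sost, the gene of the secreted Wnt inhibitor sclerostin. The high-Sost group holds clones 12H and 15H, and the low-Sost group holds clones 4L, 9L and 24L. All 5 were kept untreated for 7 days at 37 °C in one growth medium, and RNA of each was measured on 1 Affymetrix array. Each clone descends from 1 cell and was measured once, so the spread within a group holds clone, culture and array differences together, and no spread exists for a single clone. Values are log2 expression after RMA, a method that puts all arrays on 1 distribution; the array medians lay between 4.04 and 4.08. They can be compared between clones but not between genes. In such bulk RNA, fewer cells expressing a gene and less RNA per cell cannot be told apart. Sost itself read 4.08 and 3.92 in 12H and 15H and 3.78 to 3.91 in the low-Sost clones.

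Plau encodes urokinase and Plat encodes tissue-type plasminogen activator. Both are secreted proteases that cut the zymogen plasminogen into plasmin, which degrades fibrin and matrix proteins and releases or activates growth factors and metalloproteases. Plaur encodes the urokinase receptor, which is held on the outer cell membrane by a lipid anchor and concentrates urokinase at the cell surface. Srpx2 encodes a secreted protein with sushi repeats that binds this receptor, and Srpx encodes the closest relative of that protein. Serpins such as the one encoded by Serpine2 trap the activators. In bone, osteoblasts make both activators, and the system takes part in matrix breakdown and turnover.

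The sequence before the transcript start is shown for Srpx2, the member with the widest gap between the groups, and for its relative Srpx, which read low in every clone, together with a short stretch of Plaur. RefSeq promoter windows (build GRCm38.p6) were found for these 3 of the 5 members. Sequences run 5′ to 3′ on the strand of the gene, and capitals mark TGACTCA or its reverse complement TGAGTCA, the consensus of AP-1 factors. The Srpx2 stretch is chrX:133908175-133908415 on the plus strand, directly before the annotated gene. The Srpx stretch is chrX:10117641-10117890 on the minus strand, also directly before the gene. The Plaur stretch, chr7:24462403-24462432 on the plus strand, lies inside the annotated gene, which has another transcript start further upstream.
Srpx2: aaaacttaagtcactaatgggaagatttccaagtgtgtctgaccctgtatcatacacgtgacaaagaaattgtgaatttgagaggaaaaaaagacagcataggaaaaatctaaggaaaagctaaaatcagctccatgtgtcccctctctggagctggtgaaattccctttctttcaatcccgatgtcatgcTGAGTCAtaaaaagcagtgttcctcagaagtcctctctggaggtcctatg
Srpx: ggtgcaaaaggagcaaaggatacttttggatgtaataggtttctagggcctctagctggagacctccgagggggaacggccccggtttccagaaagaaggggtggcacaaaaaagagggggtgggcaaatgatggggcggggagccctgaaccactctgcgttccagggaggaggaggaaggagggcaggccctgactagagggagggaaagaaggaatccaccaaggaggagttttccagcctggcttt
Plaur: acccctggagcTGACTCActctttagcaaa

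In the 250 bases before the start that the RefSeq window gives, Srpx2 held 1 AP-1 match, at bases 59 to 53 before it, and 1 E-box (CACGTG). Plaur held 1 AP-1 match, at bases 69 to 63, and 3 GC boxes (GGGCGG), of which the later 2 share a base. Srpx held 1 GC box and no AP-1 match. None of the 3 held the cyclic AMP element TGACGTCA or the TATA motif TATAAA. Both strands were searched, and AP-1 matches overlapped no other motif searched. Of all 32851 windows of this length, 4.46% held an AP-1 match, 6.02% an E-box, 32.7% a GC box, 12.4% TATAAA and 1.55% TGACGTCA. The Srpx2 window was 41.2% G or C, against 59.6% for Plaur, 56.8% for Srpx and a median of 52.4% over all windows. These matches describe letters in the windows and say nothing of binding.

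Srpx2 was far higher in both high-Sost clones than in any low-Sost clone. Its level was 9.15 in 12H and 8.98 in 15H. Among the low-Sost clones, 9L read 5.41, 24L read 3.96 and 4L read 3.35. The means of 9.07 ± 0.12 (SD, n = 2) and 4.24 ± 1.06 (SD, n = 3) gave a difference of 4.83 on the log2 scale or 28.4-fold. Among all 23185 genes this difference ranked second among those higher in the high-Sost clones, counted by size. The lowest high-Sost clone stood 3.57 above the highest low-Sost clone, a gap several times wider than the SD of either group.

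The high-Sost clones differed from each other by 0.17 in Srpx2, or 1.13-fold, while the low-Sost clones spanned 2.06. Clone 9L stood apart within the low-Sost group: it exceeded 24L by 1.45 (2.73-fold), more than the SD of that group, whereas 24L exceeded 4L by 0.61, less than that SD. A class of 1350 olfactory and vomeronasal receptor genes, which bone cells are not known to use, gave a measure of low signal, with a 95th percentile between 3.37 and 3.56 over the clones. Srpx2 in 4L lay under that level and in 24L little above it, and 9L lay clearly above it. With 4L set to the receptor gene level of that clone, 12H was at least 51.8-fold higher than 4L, and the group difference was 4.79.

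Srpx, the relative of Srpx2, read 2.37 in 12H and 3.09 in 15H, while 4L, 9L and 24L read 2.29, 2.58 and 3.36. All 5 values lay under the receptor gene level of the same clone, and the groups overlapped. The means were 2.73 ± 0.51 (SD, n = 2) and 2.74 ± 0.55 (SD, n = 3). At such levels, a lack of difference cannot be told from a lack of signal.

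**Figure D1:**
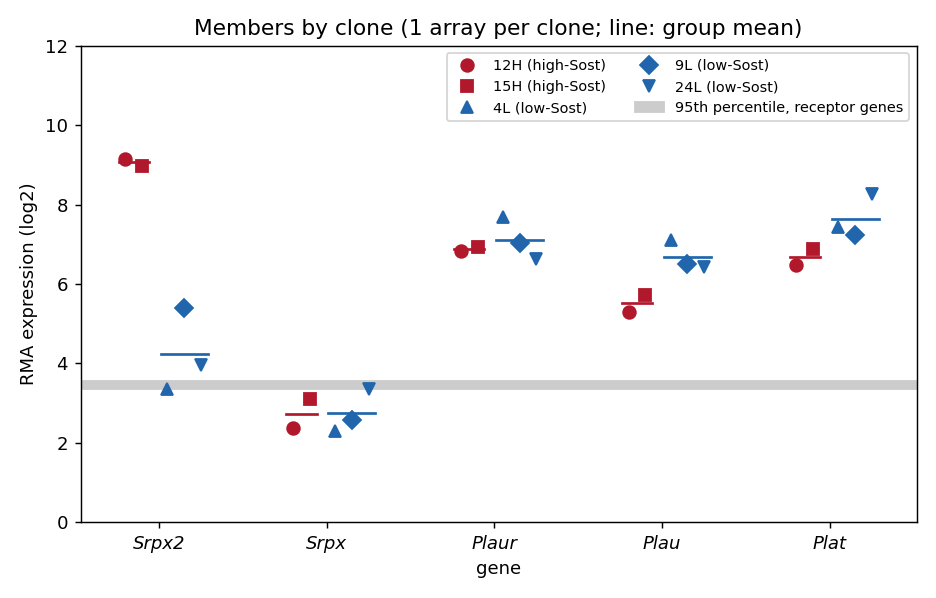
RMA expression (log2, vertical axis) of the 5 measured members in each clone, with high-Sost clones in red, low-Sost clones in blue and horizontal lines at the group means. The grey band spans the 95th percentile of receptor genes over the clones (3.37 to 3.56). Srpx2 stands near 9 in both high-Sost clones and between 3.35 and 5.41 in the low-Sost clones, while Plau and Plat stand lower in the high-Sost clones and Plaur overlaps.

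Plaur, the receptor that the SRPX2 protein and urokinase share, differed little between the groups. Clones 12H and 15H read 6.83 and 6.92, and 4L, 9L and 24L read 7.69, 7.03 and 6.64. It averaged 6.88 ± 0.07 (SD, n = 2) against 7.12 ± 0.53 (SD, n = 3) and so differed by -0.24. Both high-Sost clones lay inside the range of the low-Sost clones. In the order of levels, 4L stood 0.66 above 9L, and the steps between the other 4 clones were 0.19 or smaller, under the SD of the low-Sost group. Without clone 4L the difference was 0.05, of opposite sign.

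Plau, which encodes the urokinase that Plaur binds, was lower in both high-Sost clones. Clone 12H read 5.30 and 15H read 5.73, whereas 4L read 7.10, 9L read 6.50 and 24L read 6.42. Its mean was 5.52 ± 0.31 (SD, n = 2) against 6.67 ± 0.37 (SD, n = 3), which is 2.23-fold lower (difference -1.16). The highest high-Sost clone lay 0.69 below the lowest low-Sost clone, about as far as the low-Sost clones spanned among themselves (0.68). Clones 9L and 24L differed by 0.08, and 4L stood 0.60 above 9L. The difference was -0.94 without 12H and -0.94 without 4L, under 2-fold in each case.

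Plat, which encodes the other activator, ran in the same direction with a smaller gap. Clone 12H read 6.49 and 15H read 6.89, whereas 4L read 7.43, 9L read 7.23 and 24L read 8.26. Its mean was 6.69 ± 0.28 (SD, n = 2) against 7.64 ± 0.55 (SD, n = 3), which is 1.94-fold lower (difference -0.95). The groups did not overlap, but 9L exceeded 15H by 0.34, less than the SD of the low-Sost clones. Clone 24L was the highest, 0.83 above 4L, and without it the difference was -0.64. It passed 2-fold without 4L (-1.06), without 9L (-1.16) and without 15H (-1.15).

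The activators did not share their highest clone. Plau was highest in 4L, as was Plaur, and Plat was highest in 24L. All 3 lay above the receptor gene level in every clone. Srpx2 was lowest in 4L, where Plau and Plaur were highest, and 12H held the highest Srpx2 and the lowest Plau and Plat. Between the high-Sost clones, 12H minus 15H was -0.43 in Plau, -0.40 in Plat, -0.72 in Srpx and 0.17 in Srpx2.

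Of the 5 measured members, Srpx2, Plau and Plat did not overlap between the groups, where 16% of all genes did not. By size, 1 member (Srpx2) was at least 2-fold higher without overlap, against 0.867% of all genes, and 1 (Plau) at least 2-fold lower, against 0.983%. The members were taken up with this comparison known, so nothing is read from these shares. As Srpx2, Plau and Plat did not overlap, leaving out a clone could not change their direction, only the size of the difference. Without 9L, 2 members were at least 2-fold lower without overlap, Plau and Plat (1.63% of all genes were). The Plau and Plat differences were -0.94 and -0.75 without 12H, and -1.37 and -1.15 without 15H.

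**Figure D2:**
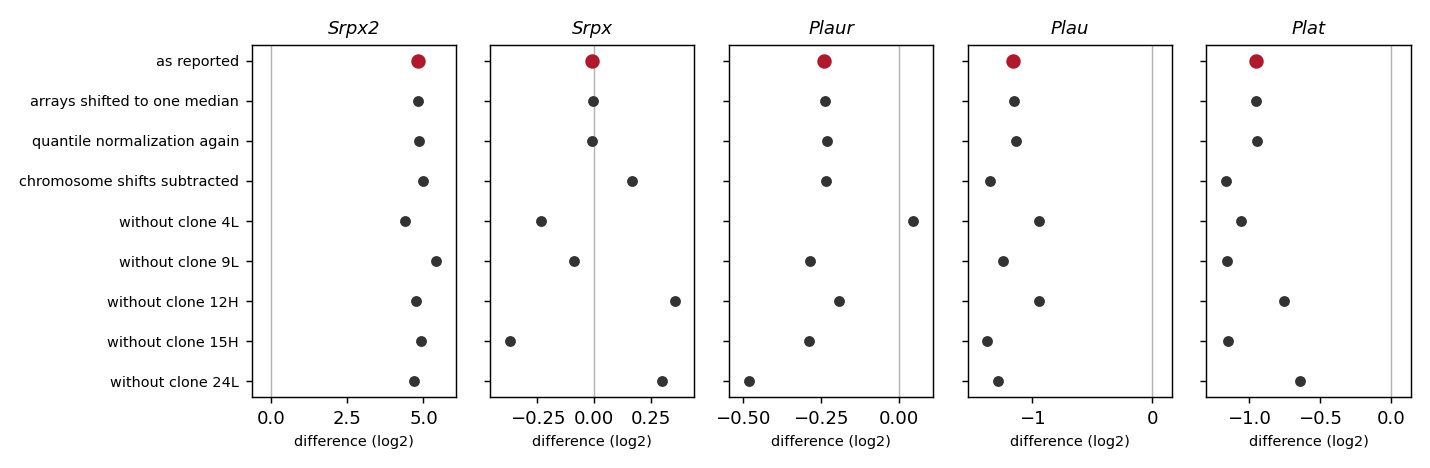
High-Sost minus low-Sost difference (log2, horizontal axis, own scale for each gene) of each member as reported (red) and under 8 alternatives (black), namely other scalings, chromosome shifts subtracted and each clone left out. Srpx2 stays between 4.38 and 5.41, Plau between -1.37 and -0.94 and Plat between -1.16 and -0.64, while Plaur and Srpx lie on both sides of 0.

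Srpx2 and Srpx lie on chromosome X, Plau on 14, Plaur on 7 and Plat on 8. Among genes with a mean of 6 or more, the median high-Sost minus low-Sost difference was -0.17 on X (218 genes), 0.17 on 14 (250 genes), 0.16 on 8 (444 genes) and 0.001 on 7 (473 genes). The shifts of single clones were largest in 12H, at -0.40 on X, 0.30 on 14 and 0.27 on 8, against 0.15, -0.03 and -0.01 in 15H. On 8, clone 9L was nearly as far off at -0.25, and on 14, clone 4L was at -0.18. Without 12H the medians were 0.06 on X, 0.04 on 14 and 0.06 on 8. Without 9L the median on 8 was 0.09. With the chromosome shift of each clone subtracted, the difference was 5.0 for Srpx2, -1.35 for Plau and -1.16 for Plat. Of the measured neighbours of Srpx2, 1, Tspan6, was also higher in both high-Sost clones than in any low-Sost clone. Before Srpx2 lie Tnmd, at 2.66 to 2.76 in every clone, and Tspan6, a tetraspanin, at 8.58 and 9.14 in 12H and 15H and at 8.42, 7.66 and 3.05 in 9L, 24L and 4L. After it lie Sytl4, at 2.59 to 2.67, and Cstf2, a cleavage factor of messenger RNA ends, at 7.25 to 7.74. Tspan6 differed by 2.48 (SE 1.96, limma adjusted p = 0.744). Its low-Sost clones stood in the same order as for Srpx2, but 9L read close to the high-Sost clones and 4L far below all others. The neighbours of Srpx, H2ap, H2al3, Rpgr and Otc, differed by 0.15 or less.

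The genes closest to Srpx2 over the 5 clones were Cd200, Ifitm5 and Megf10. Likeness was taken as the root mean square distance between profiles, each centred on its own mean, over 18190 genes, and is a description over 5 arrays. Cd200, a surface glycoprotein that restrains myeloid cells, lay at a distance of 0.70 and read 7.51 and 7.71 in 12H and 15H and 2.24, 4.24 and 4.35 in 4L, 9L and 24L. Ifitm5, a membrane protein of osteoblasts, lay at 0.81, at 8.58 and 7.48 in 12H and 15H and 3.71, 5.85 and 4.64 in 4L, 9L and 24L. Like Srpx2, it was highest among low-Sost clones in 9L. Megf10, an engulfment receptor, lay at 0.85 and read 3.76 to 4.08 in the low-Sost clones. With the largest single difference as the measure, the closest genes were Phex, Dmp1 and Cd200, so 1 of the 3 was shared.

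Plau was followed most closely by Epb41l4a (distance 0.09), Tubb2b (0.12) and Gem (0.13). Epb41l4a encodes a protein of the band 4.1 family, Tubb2b a beta-tubulin and Gem a small GTP-binding protein. These 3 genes were highest in 4L and lowest in 12H, as Plau was, with differences of -1.02, -1.04 and -1.23. Plat was followed by C1qtnf1 (0.09), Snai2 (0.11) and Mthfsl (0.11), all highest in 24L and lowest in 12H. Snai2, a zinc-finger repressor of epithelial genes, read 8.84 and 9.06 in 12H and 15H and 9.76, 9.38 and 10.3 in 4L, 9L and 24L. Plaur was closest to Cert1 (0.05), a ceramide carrier, Nlk (0.05), a kinase, and Commd4 (0.07). Srpx, under the receptor gene level, was closest to Ccdc149 (0.07), Emilin1 (0.11) and Prkg2 (0.12), which all lie on chromosome 5.

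**Figure D3:**
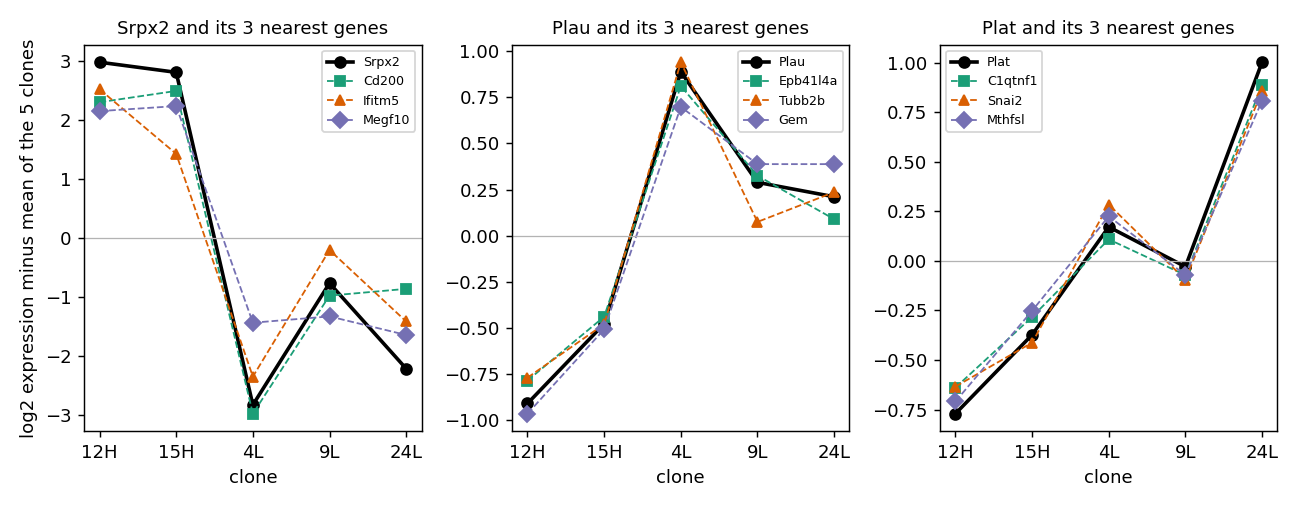
Log2 expression minus the mean of the 5 clones (vertical axis, own scale in each panel) for Srpx2, Plau and Plat (black) and the 3 genes closest to each (dashed), by clone. Lines only guide the eye, since clones have no order. The genes near Srpx2 lie 0.70 to 0.85 from it and those near Plau and Plat 0.09 to 0.13, on a smaller scale.

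Around the members, 91 further genes of the pathway and its protein families were listed, of which 84 were measured and 7 were not analysed here. In limma, 0 of the 84 had an adjusted p under 0.05, and 0% of all genes did. At an unadjusted p under 0.05 there were 5 of the 84, against 5.78% of all genes tested. Without overlap, 3 were higher by 2-fold or more (0.867% of all genes were) and 3 were lower (0.983% were). Of any size, 17 of the 84 did not overlap (16% of all genes did not). The median difference was 0.00 both in these genes and over all genes. In 14333 of the 25206 probe sets some clones read the same value, and in 1430 all 5 did. Rows of the latter kind have a difference of 0 whatever the groups, and they count toward such medians. The counts depended on single clones: without 15H there were 1 higher and 8 lower (2.04% of all genes were lower), and without 9L there were 6 lower (1.63%). Without 12H there were 2 lower (0.914%). In 28 of the 84 genes no clone exceeded the receptor gene level.

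Among plasmin substrates, both growth factors of the PDGF family that need such cleavage were higher in the high-Sost clones by size. Pdgfd, which urokinase or plasmin activates, read 8.35 and 7.76 in 12H and 15H and 4.84, 4.94 and 6.63 in 4L, 9L and 24L. This is a difference of 2.58 (SE 0.70, limma adjusted p = 0.737). Pdgfc, which Plat and plasmin can activate, read 9.71 and 9.79 against 8.32, 8.78 and 9.13 in 4L, 9L and 24L (difference 1.01, SE 0.27, adjusted p = 0.737 in limma). It was under 2-fold without 4L (0.80), without 15H (0.97), with chromosome shifts subtracted (0.96) and with array weights (0.96). The groups did not overlap in either gene.

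Among the metalloproteases that act with plasmin, Mmp13, a collagenase of bone cells, read 3.73 in 12H and 5.81 in 15H, against 2.56, 3.23 and 3.00 in 4L, 9L and 24L. All 3 low-Sost values lay under the receptor gene level. With these set to that level, Mmp13 was at least 2.55-fold higher in the high-Sost clones. The measured difference of 1.84 (SE 0.73) rested on 15H, without which it was 0.80. Mmp9, a gelatinase, was lower by size, at 3.79 and 3.64 against 4.75, 4.03 and 5.64 (-1.09, SE 0.54), and it was under 2-fold without 24L. Both high-Sost values of Mmp9, and Mmp13 in 12H, lay little above the receptor gene level (3.55 in 12H and 3.56 in 15H). Tgfb1, a latent growth factor that plasmin can release, had the smallest p of the 84 genes, with a difference of 0.48 (SE 0.08, limma adjusted p = 0.602). The 15 measured substrates had a median difference of 0.00, and 6 of them did not overlap (16% of all genes did not).

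Among partners and clearance receptors of the urokinase receptor, Egfr, the epidermal growth factor receptor, was lower by size in the high-Sost clones. Clones 12H and 15H read 3.61 and 5.29, and 4L, 9L and 24L read 6.48, 5.57 and 7.95, a difference of -2.22 (SE 0.99) or 4.65-fold (limma adjusted p = 0.737). Clone 12H read lowest, little above its receptor gene level of 3.55, and 24L read highest. Without 12H the difference was -1.37, and without 24L it was -1.57. The step from 15H to 9L was smaller than the SDs within the groups (1.19 and 1.20). The integrin subunits Itgav and Itga5 had the smallest p of these 16 genes, with differences of 0.19 (SE 0.06) and -0.51 (SE 0.16). The median of the 16 genes was 0.13.

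Serpins and other inhibitors had 10 measured genes, 0 of them 2-fold apart without overlap, and a median difference of 0.01. In 4 of the 10 no clone exceeded the receptor gene level. Plasminogen, its receptors and the proteases upstream of urokinase had 13 measured genes and a median of -0.12, again with 0 genes 2-fold apart without overlap. Ctsb, the lysosomal protease cathepsin B, differed by -0.27 (SE 0.10) and Plgrkt, a plasminogen receptor, by -0.31 (SE 0.14). Plg, plasminogen itself, a liver product, read 3.89 to 4.25.

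Relatives by protein fold formed the last groups. Of 15 measured sushi-domain genes 0 were 2-fold apart without overlap, and Svep1 and Susd1 had the smallest p, with -0.24 (SE 0.14) and 0.32 (SE 0.19). The groups overlapped in both genes. Susd1 read 3.94 in 12H and 3.28 to 3.38 in the others, and it exceeded the receptor gene level in 2 clones. Of 15 measured relatives of Plaur in the Ly6 family, 1 was 2-fold apart without overlap. This was Ly6e, at 9.14 and 10.5 against 11.5, 10.6 and 10.7 (-1.11, SE 0.57, limma adjusted p = 0.737). It was under 2-fold without 12H (-0.41), without 4L (-0.84) and with chromosome shifts subtracted (-0.70). Clones 15H, 9L and 24L lay close together, with 12H below and 4L above them.

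**Figure D4:**
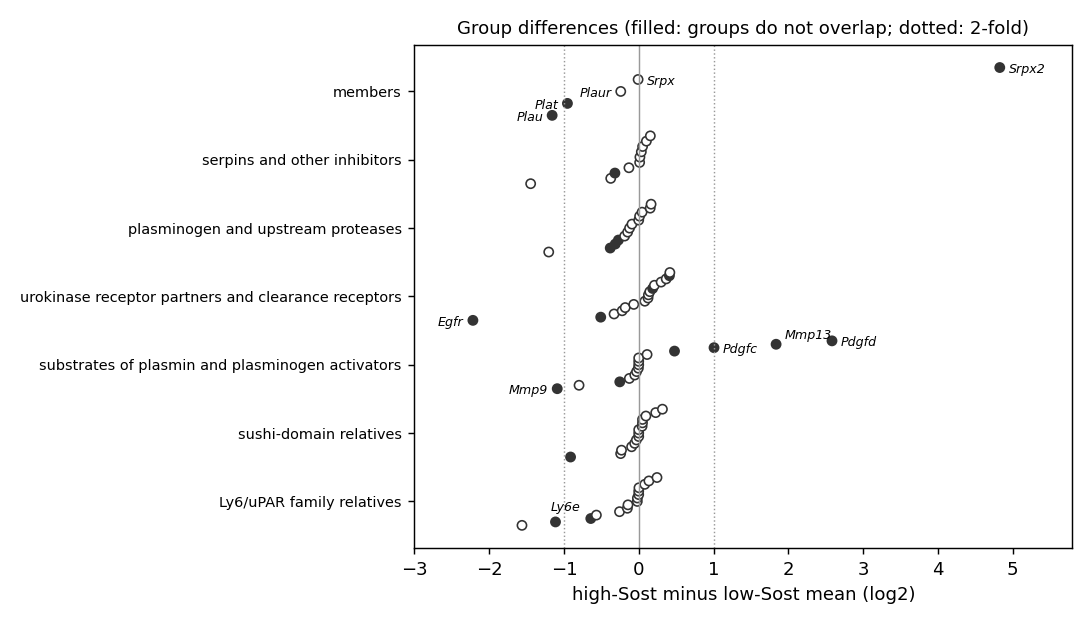
High-Sost minus low-Sost difference of group means (log2, horizontal axis) for each measured member and each measured gene of 6 pathway groups, 1 point per gene. Filled points mark genes whose clones do not overlap between the groups, and dotted lines mark 2-fold. Srpx2 lies at 4.83, beyond all 84 pathway genes, whose differences run from -2.22 (Egfr) to 2.58 (Pdgfd).

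The labelled cell type was checked against markers. Of 11 osteocyte and osteoblast markers measured, 9 exceeded the receptor gene level in 12H and 15H, 7 in 9L and 24L and 6 in 4L, and their summed level was 79.3 to 82.3 in the high-Sost and 56.4 to 69.1 in the low-Sost clones. Col1a1, the main bone collagen, read 10.4 to 11.6 in every clone, while Mepe and Fgf23 did not exceed that level in any. Of the 11, Dmp1, Phex, Sp7, Alpl and Bglap were at least 2-fold higher in the high-Sost clones without overlap (0.867% of all genes were). Pdpn, which encodes podoplanin, an early osteocyte marker, ran the other way without overlap, at 8.35 and 8.06 against 9.20, 8.97 and 9.20 (-0.92, SE 0.13, limma adjusted p = 0.572). The summed level moved with Srpx2 between the groups, and its part in the Srpx2 result was not tested. Of 6 blood and macrophage markers 3 exceeded the level in every clone: Cd68 (5.27 to 6.97), Cd14 (4.23 to 4.70) and Csf1r (3.57 to 3.59). The sums of the 6 were 19.3 to 20.8 in the high-Sost and 19.8 to 21.4 in the low-Sost clones. Ptprc, the pan-leukocyte marker, read 1.78 to 1.91 and, like Adgre1 and Itgam, did not exceed the level in any clone. Of 6 endothelial markers 0 or 1 exceeded it, and Pecam1 and Cdh5 read 2.55 to 3.04.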

How the data were processed

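RNA of 5 clones was labelled with biotin and hybridised to 1 Affymetrix array each. The deposited values are log2 expression per probe set; RMA is listed, per the submitters' processing notes, beside affy (1.36.1) and R (2.15.1), without saying which did what. Chip definition and filters: not given in the sources used here. Among 25206 probe sets, 23185 have 1 gene in the platform table and were matched by Entrez number to RefSeq (GRCm38.p6). The 2021 others were left out. Serpine2 is not among the named.

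All named genes were fitted with limma 3.58.1 in R 4.3.3 (lmFit, eBayes without trend), with two-sided p-values adjusted by Benjamini-Hochberg over all 23185. The fit has 3 residual degrees of freedom, and the smallest p that exact permutation allows in this design is 0.1. The number of arrays limits the precision. The fit was also run on simulated data with normal noise. Those data did not copy the repeated values of these arrays, so nothing is read from that run for the genes here.

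Members and gene lists were chosen with earlier results of these data known. Pathway genes were named where 2-fold apart without overlap, up to 4 per list. In lists with none, other than the serpins, the 2 with the smallest p were named. Tgfb1, Plg and Serping1, among others outside this rule, were chosen after their values were seen, as were the promoter motifs. Lower bounds set dim values to the 95th percentile of receptor genes in that clone. Alternatives were other scalings, chromosome shifts subtracted, a filter on dim genes, a variance trend, array weights, a 1.5-fold limit and each clone left out.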

Additional observations from a re-analysis of the deposited data

How the results depend on the processing

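The Srpx2 difference stayed within the spread between clones under all 8 alternatives (4.38 to 5.41), and Srpx2 was the 1 member at least 2-fold higher in each. With its gap of 3.57 between the groups, leaving out a clone could change neither its direction nor its 2-fold call. The other scalings acted on arrays already put on 1 distribution and gave 4.83 and 4.86. The count of members 2-fold lower was 2 with chromosome shifts subtracted, where Plat joined Plau (0.983% of all genes were lower). With array weights it was also 2 (0.975% were). With a low-Sost clone left out it was 1 or 2 (1.09% to 1.63% were), and without 4L the 1 member was Plat. Without 12H, neither Plau (-0.94) nor Plat (-0.75) reached 2-fold. Of the 84 pathway genes, 5 were lower with 1.5-fold in place of 2-fold, a limit at which the share of all genes was not counted. With a low-Sost clone left out, 2 or 3 were higher (0.703% to 1.30% of all genes were). In the same settings 3 to 6 were lower (1.09% to 1.63% of all genes were). Counts of lower pathway genes without 12H or 15H are given above. No pathway gene passed an adjusted p under 0.05 (0) in limma under any of 11 alternatives. No fit with paired clones was possible because the clones are separate and the labels give no pairs. With 12H or 15H left out, the remaining high-Sost clone takes its spread from the low-Sost group.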

Other observations

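Some pathway genes read apart from all other clones in 1 clone. By a rule chosen after the data were seen, 10 times the measured value of a gene of the 84 stood at least 2-fold outside the range of the other 4 clones: 3 times each in 9L and 12H, 2 times in 4L and 1 time each in 15H and 24L. Egfr did so in both 12H and 24L. The share of all genes that meets this rule was not counted, so nothing is read from these counts.

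The widest gap was in Serping1, which encodes the C1 inhibitor, a serpin that blocks complement and contact-system proteases. It read 7.73 in 9L and 2.33 to 2.94 in the other clones, where it did not exceed the receptor gene level. Set against that level, 9L was at least 18.0-fold higher than any other clone. Clone 9L was also highest for Susd2, a membrane protein with a sushi domain (6.86, against 4.57 to 5.29). It was lowest for Lrp1, the endocytic receptor that clears complexes of activators with their inhibitors (6.76, against 7.88 to 8.11). Clone 4L was highest for Serpini1, which encodes neuroserpin, an inhibitor of the Plat product (5.05, against 2.90 to 3.87). These are single arrays with no repeat.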
